A study of Mus musculus with 4 samples.

Results

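The interleukin 1 family and its receptors were followed through 10 genes in thymospheres, the free-floating spheres that form when dissociated thymus cells are cultured without attachment. The genes are the ligands Il1a, Il1b, Il18 and Il33, the receptor antagonist Il1rn, the receptor genes Il1r1, Il1r2, Il1rl1 and Il1rap, and the binding protein gene Il18bp. They were chosen by name, and their probes were found through the RefSeq accession of each probe, which gave 13 probes for all 10 genes, of 28026 probes and 21154 genes so matched on the array. Embryonic spheres were grown from thymus at embryonic day 14.5 and adult spheres from the thymus of mice 5 to 6 weeks old, all of the C57Bl6/N strain. Each group had 2 samples, each on its own 1-colour Agilent array of the same slide, so all values rest on 4 arrays. The groups also sat at different places on that slide, which cannot be told apart from the group. Both kinds of sphere were grown for 7 days, with medium added on day 5, and the medium of both groups held B27 supplement, hydrocortisone (a glucocorticoid), insulin, EGF and bFGF. The labels do not say how many animals a sample pools or which replicates are technical, and the p-values therefore reflect only the spread among these samples, perhaps a technical one.

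Interleukin 1 alpha and beta bind the receptor Il1r1, which pairs with the accessory chain Il1rap and signals through Myd88 and the Irak kinases to NF-kappaB. The antagonist Il1rn fills the same receptor without starting a signal, and Il1r2 is a decoy that binds ligand but cannot signal. Il33, an alarmin stored in the nucleus of stromal and barrier cells, uses the receptor Il1rl1 (also called ST2) with the same accessory chain. The Il1rl1 gene makes a long membrane receptor and a shorter soluble form that captures its ligand, while Il18bp captures Il18.

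Levels are given as normalised log2 signal, where 0 is the 75th percentile of the array's signals and a step of 1 is a doubling. Between 35.7% and 48.3% of spots were well above background on the embryonic arrays and between 49.6% and 71.6% on the adult arrays, as the scanner software scored them. A gene was tested if its probe cleared background on both embryonic or both adult arrays, and it was called if its adjusted p in limma, over 13660 genes, was under 0.05. Of all genes tested 53.5% were called, 36.1% higher and 17.4% lower in embryonic spheres, and the median log2 fold change was 0.79. Fold changes below are embryonic minus adult, and that median is the level they stand against. Of the genes called lower, 72.1% were dim, that is, not well above background, on both embryonic arrays. On 1162 probes for olfactory receptors, genes mostly restricted to sensory cells, 6.28% and 1.89% were well above background on the embryonic arrays, against 55.9% and 26.5% on the adult arrays. Of the 287 olfactory receptor genes that passed the filter, 256 were called lower in embryonic spheres and 4 higher. The part of this adult signal in the lower calls of dim genes was not tested. Without either of the adult arrays limma called no gene of the whole table, with 6449 and 5517 genes below 0.05 before adjustment, so every call below is lost there.

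Embryonic spheres gave lower signal for the ligand genes Il33 and Il1a, the antagonist gene Il1rn and the receptor gene Il1rl1, and no member was called higher. Il1a and Il1rn were dim on both embryonic arrays. The part of the adult signal seen on olfactory receptor probes in their calls was not tested. Of the 10 members, 7 were tested, 4 were called lower, and 3 (Il1r1, Il1rap and Il18bp) were not called. The other 3 members, Il1b, Il18 and Il1r2, did not pass the filter. Only Il33 and Il1r1 cleared background on all 4 arrays, and the other 5 tested members passed through the adult arrays alone, a filter that favours lower calls. Lower calls made up 17.4% of all genes tested, but 2.35% of those that cleared background on all 4 arrays. The 17.4% is therefore too low a measure for Il1a, Il1rn and Il1rl1. Of the 2380 lower calls over 13660 genes, only 226 fell among the 9622 genes that cleared background on all 4 arrays. Most lower calls thus fell on genes that, like these 3, did not clear background on every array. The exact share among genes that passed through the adult arrays alone was not counted. The 3 calls are therefore not read as particular to this family. In all 4 called members the embryonic arrays lay below the adult arrays without overlap. This adds little to the calls, which rest on the same values. Among all genes measured on all 4 arrays, called or not, the embryonic arrays lay below in 22.5%. The groups were also apart in Il1r1, with the embryonic arrays above, as for 61.5% of those genes, and 84.0% were apart in either direction.

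**Figure D1:**
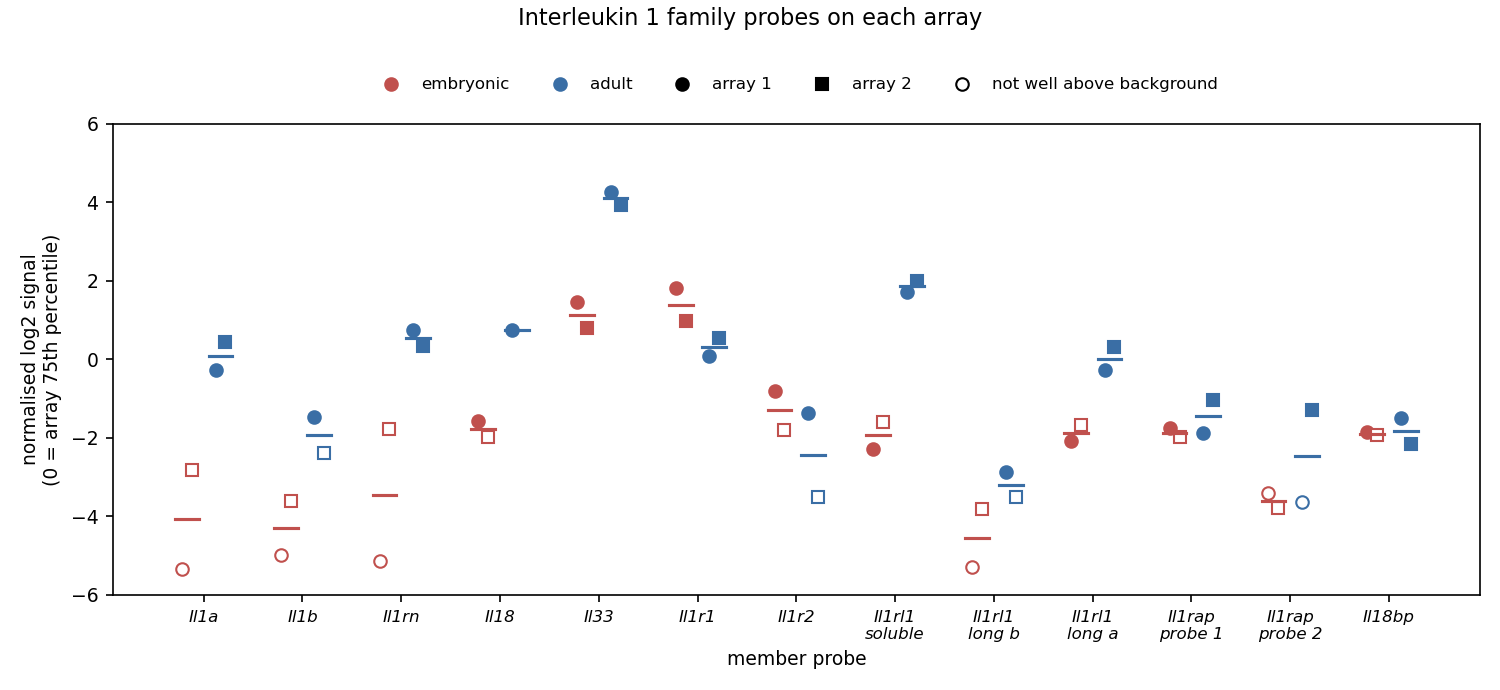
Normalised log2 signal (vertical axis, 0 = 75th percentile of the array) of the 13 member probes on the 2 embryonic and 2 adult arrays. Circles are array 1 and squares array 2, horizontal lines are group means, and open symbols were not well above background. Il33 and the soluble-form probe of Il1rl1 sit far lower on both embryonic arrays than on both adult arrays, while Il1rap and Il18bp overlap. Long a is the brighter long-form probe of Il1rl1, and Il18 has 1 adult value. Levels of different probes cannot be compared.

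Il33 was the member with the clearest measurement. Its level was 1.47 and 0.80 on the embryonic arrays, against 4.25 and 3.94 on the adult arrays. Both embryonic values lay well below both adult values and all 4 cleared background. The log2 fold change was -2.96 (SE 0.37, 95% interval -3.89 to -2.04, adjusted p = 0.00762), so that adult spheres held 7.80 times the embryonic signal. Of the 9622 genes that cleared background on every array, 2.35% were called lower in that fit. Over the alternatives in processing the change ran from -3.65 to -1.78, always lower in embryonic spheres, and the call was lost in 2 of 14, those without an adult array (adjusted p = 0.078 and 0.0906).

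Il1a encodes the interleukin 1 form that is active in its uncut state. It reached -5.34 and -2.81 on the embryonic arrays, against -0.27 and 0.43 on the adult arrays. Both embryonic values were dim and both adult values were not, so only a bound can be given, by which adult spheres held at least 5.73 times the embryonic signal (adjusted p = 0.0146). The fitted log2 fold change was -4.16 with all arrays (95% interval -6.27 to -2.05), -2.90 without embryonic array 1 and -5.42 without embryonic array 2. The bound leaves out the error of the means, and that interval reaches changes smaller than the bound. With normexp background correction the change was -1.23 (adjusted p = 0.0288), and in the deposited value table it was -1.91. Both are smaller than the bound, which belongs to the scaling used here. With no filter on dim probes the call was lost (adjusted p = 0.0505).

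Il1b, the interleukin 1 form that caspase 1 cuts to release, was seen weakly and mainly on 1 array. Its probe is printed as 10 spots on each array, of which 0 and 0 were well above background on the embryonic arrays, against 10 and 3 on the adult arrays. The mean level was -4.97 and -3.60 on the embryonic arrays, against -1.47 and -2.38 on the adult arrays. Its 10 spots spanned -5.30 to -4.07 on embryonic array 1 and -3.87 to -2.89 on embryonic array 2, against -2.68 to -0.52 on adult array 1 and -3.69 to -1.69 on adult array 2. The spots of adult array 1 lay above all embryonic spots, while those of adult array 2 overlapped with embryonic array 2. Adult array 2 was not well above background for this probe either, so no lower bound on the fold is given. Il1b was not tested in the fit. With no filter on dim probes it changed by -2.36 (SE 0.65, adjusted p = 0.0669), which missed the threshold.

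Il18, another caspase 1 substrate, could not be tested because the only spot of its probe on adult array 2 carried an outlier flag. The 3 remaining values were -1.57 and -1.98 on the embryonic arrays, against 0.74 on adult array 1. Embryonic array 1 was well above background and embryonic array 2 was not. With no filter on dim probes and the flagged spot left out, the log2 fold change was -2.52, which rests on adult array 1 alone in its group. With flagged spots kept, an alternative chosen after the data were seen, adult array 2 read 2.08 and the log2 fold change was -3.18 (SE 0.53, adjusted p = 0.00988). That result relies on the flagged spot.

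The upstream sequence of these genes was read to show what the ligand genes and the antagonist gene carry near their starts. Each line below gives the 250 bases before an annotated start from RefSeq (GRCm38.p6), read 5′ to 3′ on the gene's strand. Capitals mark a TATA box (TATAAA) or an AP-1 element (TGANTCA). Il1a lies on the minus strand at chr2:129309973-129310222, Il1b on the minus strand at chr2:129371140-129371389, Il1rn (the most upstream of its 3 starts) on the plus strand at chr2:24336610-24336859 and Il33 (the downstream of its 2 starts) on the plus strand at chr19:29945540-29945789.
Il1a: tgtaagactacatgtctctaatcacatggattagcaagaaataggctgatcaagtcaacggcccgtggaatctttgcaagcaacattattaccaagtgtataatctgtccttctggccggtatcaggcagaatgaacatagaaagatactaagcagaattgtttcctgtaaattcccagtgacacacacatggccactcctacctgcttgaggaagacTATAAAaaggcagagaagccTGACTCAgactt
Il1b: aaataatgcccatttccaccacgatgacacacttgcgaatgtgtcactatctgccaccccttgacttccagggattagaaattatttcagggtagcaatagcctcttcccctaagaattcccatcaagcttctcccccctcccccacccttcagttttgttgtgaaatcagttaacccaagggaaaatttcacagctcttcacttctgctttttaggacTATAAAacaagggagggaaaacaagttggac
Il1rn: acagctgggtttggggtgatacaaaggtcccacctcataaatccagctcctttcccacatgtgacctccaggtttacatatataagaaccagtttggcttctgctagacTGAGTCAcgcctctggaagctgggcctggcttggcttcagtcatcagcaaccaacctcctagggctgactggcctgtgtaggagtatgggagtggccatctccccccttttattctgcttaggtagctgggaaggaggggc
Il33: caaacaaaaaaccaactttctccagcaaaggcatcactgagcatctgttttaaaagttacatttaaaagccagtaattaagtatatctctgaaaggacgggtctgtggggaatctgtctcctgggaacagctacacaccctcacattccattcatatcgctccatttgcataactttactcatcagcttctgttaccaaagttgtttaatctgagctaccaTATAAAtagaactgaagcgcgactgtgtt

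In the windows of 250 bases before to 50 bases after a start, searched on both strands, Il1a, Il1b and Il33 carried TATAAA with its first base at -32, -31 and -29 from the start. Il1a also carried an AP-1 element from -12 to -6 that does not overlap the TATA box, and Il1rn carried an AP-1 element from -141 to -135. A TATAAA stood in 6 of the 15 windows of the 10 members, and in 13.6% of all 32851 windows, at any place and on either strand. The other matches among the 6 lay elsewhere. They began at -203 in the upstream Il33 window and, on the opposite strand, at -175 in Il18 and 15 in a window of Il1rn. AP-1 elements stood in 2 of 15 windows and in 7.81% of all windows, and the NF-kappaB consensus in 1 of 15 (Il1r1) and in 8.46% of all. Neither window of Il1rl1 held any of the 3 motifs. These matches describe letters in a window and do not mark bound sites.

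Il1rn, whose product blocks the receptor, moved in the same direction as Il1a, the ligand it opposes. It read -5.15 and -1.77 on the embryonic arrays, against 0.74 and 0.34 on the adult arrays. The adult arrays were close to each other and the dim embryonic arrays were far apart, neither of them well above background. By the bound, adult spheres held at least 7.87 times the embryonic Il1rn signal (adjusted p = 0.0276). Its fitted log2 fold change was -4.00 (SE 1.07, 95% interval -6.67 to -1.33) with all arrays, -2.31 without embryonic array 1 and -5.69 without embryonic array 2. The bound leaves out the error of the means, and that interval reaches changes smaller than the bound. The change was -1.43 with normexp background correction and -1.98 in the deposited value table, again smaller than the bound. The call was lost with no filter on dim probes (adjusted p = 0.0713).

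Il1rl1 had 3 probes, of which 1 carries the RefSeq accession of the soluble form and 2 that of the long membrane form. The soluble-form probe read -2.28 and -1.59 on the embryonic arrays, against 1.71 and 2.00 on the adult arrays. It cleared background on both adult arrays but only on the first of the embryonic ones, and stood for the gene. Its log2 fold change was -3.79 (SE 0.37, 95% interval -4.72 to -2.86, adjusted p = 0.00731), which makes the adult signal 13.8 times the embryonic signal. Over the alternatives the change ran from -4.47 to -2.29 and was called in 11 of 13, lost only without an adult array (adjusted p = 0.078 and 0.0906).

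Of the Il1rl1 probes assigned to the long form, the brighter was lower in embryonic spheres too. It read -2.07 and -1.67 on the embryonic arrays, against -0.28 and 0.32 on the adult arrays, a change of -1.89 (SE 0.37, adjusted p = 0.0138 in limma over 16662 probes, of which 53.0% were called). The other long-form probe was well above background on 1 array only, adult array 1, where it read -2.87. Whether each probe reads 1 form alone was not checked. Within each array the soluble-form probe minus the brighter long-form probe was -0.21 and 0.08 in embryonic spheres, against 2.00 and 1.68 in adult spheres. This difference was 1.90 log2 units lower in embryonic spheres, and the groups did not overlap, but an exact two-sided permutation test of 2 against 2 arrays cannot go below p = 0.333, the value found here. Both probes were dim on embryonic array 2, which limits how low either can read.

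Il1r1, Il1rap and Il18bp did not pass the test. The signalling receptor gene Il1r1 read 1.81 and 0.97 on the embryonic arrays, against 0.09 and 0.53 on the adult arrays. All 4 values cleared background and both embryonic values lay above both adult values. The log2 fold change was 1.07 (SE 0.41, 95% interval 0.04 to 2.10, adjusted p = 0.072), only 0.28 above the median of all genes tested. It was called in 3 of 14 alternatives, namely with arrays centred on their all-probe median (2.26, adjusted p = 0.00111), among genes with signal on all 4 arrays (adjusted p = 0.0338) and with embryonic array 2 left out (1.49, adjusted p = 0.0145).

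Il1rap, the shared accessory chain, read -1.75 and -1.98 on the embryonic arrays, against -1.88 and -1.03 on the adult arrays, and the groups overlapped. Its log2 fold change was -0.41 (95% interval -1.41 to 0.58, adjusted p = 0.394), with the sign turned under centring on all probes, quantile normalization, the deposited value table and without adult array 2. A second probe of Il1rap was well above background on adult array 2 only, where it read -1.29. Il18bp, whose product captures Il18, read -1.86 and -1.94 on the embryonic arrays, against -1.49 and -2.16 on the adult arrays. Its log2 fold change was -0.07 (95% interval -0.97 to 0.83, adjusted p = 0.869), the sign turned under 4 alternatives, and with centring on all probes it was called higher (1.12, adjusted p = 0.0424).

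The decoy receptor gene Il1r2 was seen on array 1 of each group only. It read -0.81 and -1.79 on the embryonic arrays, against -1.38 and -3.51 on the adult arrays. The groups overlapped, and with no filter on dim probes its log2 fold change was 1.14 (SE 0.84, adjusted p = 0.353).

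**Figure D2:**
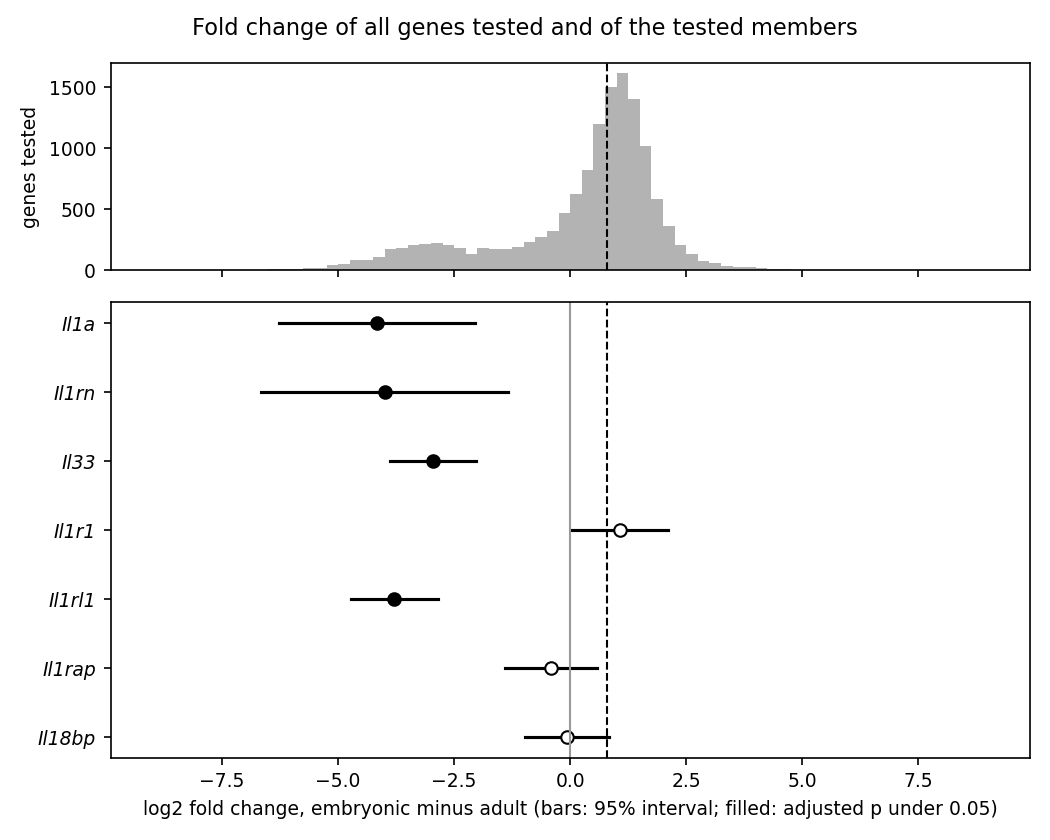
Top, number of genes (vertical axis) by log2 fold change, embryonic minus adult, over the 13660 genes tested. Bottom, the 7 tested members with their 95% intervals; filled points had an adjusted p under 0.05, and the dashed line is the median of all genes, 0.79. Il1a, Il1rn, Il33 and Il1rl1 lie between -4.16 and -2.96, and Il1r1, Il1rap and Il18bp lie near or below the median with intervals that reach close to or across 0.

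Among 9344 other genes that cleared background on every array and bear a proper symbol rather than a provisional one, the pattern of Il33 over the arrays was most like that of Timp1, H2-Q5, Cck, Srgn and Krtap11-1. Likeness was the Euclidean distance between values centred on each gene's own mean, and it was 0.23, 0.34, 0.36, 0.46 and 0.47 log2 units for these genes. In all, 25 genes lay within 1 log2 unit. With 4 arrays this describes little more than a fall of the same size in embryonic spheres.

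Genes that process and release interleukin 1 moved both ways. Of 15 such genes 12 were tested, 3 were called higher and 3 lower, and the list's median was -0.21 against 0.79 over all genes. Casp1, the protease that cuts Il1b and Il18, read -1.22 and -1.49 on the embryonic arrays, 1 of which cleared background, against 1.56 and 0.94 on the adult arrays. Its log2 fold change was -2.61 (SE 0.36, adjusted p = 0.00847), and -1.42 to -3.29 under 5 other scalings or background corrections, each of which called it. The inflammasome sensor genes Nlrp3 and Nlrp1b were dim on both embryonic arrays and had at least 2.40 times and at least 2.52 times the embryonic signal in adult spheres (adjusted p = 0.0127 and 0.0132), and both calls were lost with normexp (adjusted p = 0.176 and 0.0987). The Nlrp3 call was also lost with quantile normalization and in the deposited value table. The inflammasome adaptor gene Pycard (1.12, SE 0.31), the kinase gene Nek7, which binds Nlrp3 (1.24, SE 0.30), and the calpain gene Capn2 (1.33, SE 0.37) were called higher, with adjusted p from 0.0227 to 0.0316. Nlrc4, Aim2 and Gsdme did not pass the filter.

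Most receptor-proximal signalling genes were measured in both kinds of sphere, 12 of 16 on both embryonic arrays and 14 of 16 on both adult arrays. Of these 16, 14 were tested, 6 were called higher and 1 lower, and their median log2 fold change of 0.83 lay next to the 0.79 of all genes. Tab3, which links the kinase Map3k7 to ubiquitin chains (1.68, SE 0.35), the ubiquitin-conjugating enzyme gene Ube2n (1.52, SE 0.37) and the Irak-binding ubiquitin ligase gene Peli1 (1.48, SE 0.32) rose most, while its relative Peli2 was called lower (-1.16, SE 0.38, adjusted p = 0.0486), a sign that turned with centring on all probes. The adaptor gene Myd88 had a log2 fold change of 0.48 (adjusted p = 0.225). Irak4 and Traf6 did not pass the filter.

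The NF-kappaB genes lay close to the median of all genes as well. Of 15 genes 14 were tested, 3 were called higher and 1 lower, and the list's median was 0.71. The kinase gene Chuk (1.54, SE 0.33), the inhibitor gene Tnfaip3 (1.48, SE 0.36) and the subunit gene Rela (1.38, SE 0.31) were higher, with adjusted p from 0.0166 to 0.0217. Rel, the subunit best known from lymphoid and myeloid cells, read -5.40 and -3.92 on the embryonic arrays, against 0.24 and -0.47 on the adult arrays. By the bound, the adult signal was at least 5.00 times the embryonic one (adjusted p = 0.00765). With normexp the Rel change was -1.20 (adjusted p = 0.0243), smaller than the bound. Nfkbie did not pass the filter. With arrays centred on the tested genes, none of the higher calls in the processing, signalling, NF-kappaB and induced lists remained.

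Among genes that interleukin 1 induces in stromal cells the balance of calls depended on the scaling and the filter. Of 22 genes 19 were tested, 7 were called lower and 2 higher, and the median log2 fold change was -1.16. With centring on all probes 3 were lower and 5 higher with a median of 0.03, and among genes with signal on all 4 arrays 2 were lower and 2 higher. Of the 7 lower calls 5 (Il6, Cxcl2, Mmp13, Csf3 and Zc3h12a) passed the filter through the adult arrays alone. Il6 had levels of -2.70 and -1.46 on the embryonic arrays, against 3.10 and 2.34 on the adult arrays, and cleared background on 1 of the 2 embryonic arrays. Its log2 fold change was -4.80 (SE 0.53, adjusted p = 0.00731). The collagenase gene Mmp13 had at least 3.09 times the embryonic signal in adult spheres (adjusted p = 0.00751). With normexp the Mmp13 change was -0.86 (adjusted p = 0.0472), smaller than the bound. The granulocyte growth factor gene Csf3 changed by -2.58 (SE 0.53, adjusted p = 0.0147), a call lost with normexp (adjusted p = 0.0884). The Csf3 call was also lost with quantile normalization and with no filter on dim probes. The adhesion molecule gene Icam1 (1.43, SE 0.31) and the prostaglandin E synthase gene Ptges (1.10, SE 0.30) were higher. The other 4 called lower were Cxcl2, Mmp3, Ptgs2 and Zc3h12a. All 4 lost the call with centring on all probes (adjusted p from 0.168 to 0.716). Cxcl2 and Zc3h12a also lost it with quantile normalization and with normexp, and Cxcl2 in the deposited value table. Ccl20, Lif and Mmp9 did not pass the filter.

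Among the lists of the interleukin 1 pathway, the same list set the embryonic arrays apart from each other, a pattern noted after the values were seen. Of its 13 genes with signal on all 4 arrays, 5 differed by over 2 log2 units between the embryonic arrays, which 0.977% of the 9622 such genes did, and none did between the adult arrays. The median difference over the 13 was 1.64 between the embryonic arrays and 0.20 between the adult arrays, against 0.32 in both groups over such genes. The acute phase gene Saa3 read 10.14 and 5.69 on the embryonic arrays, against 6.67 and 6.85 on the adult arrays, and the siderophore-binding gene Lcn2 read 9.12 and 6.12, against 8.37 and 7.56. The chemokine gene Cxcl5 read 3.96 and -0.27 on the embryonic arrays, against 4.89 and 3.58 on the adult arrays. Ccl2 and Ccl7 were the other 2 genes. Embryonic array 1 was the higher in all 5, and the adult arrays of Saa3 lay between the embryonic arrays. The ligand gene Il1a and the antagonist gene Il1rn were dim on both of these arrays, while the receptor gene Il1r1 read 1.81 on embryonic array 1 and 0.97 on array 2. The lists of cell type markers, read below, were not counted in this way. Their neutrophil genes S100a8 and S100a9 and myeloid gene C1qa were also higher on embryonic array 1, while Kit and Krt5 were lower there. Whether the pattern is particular to genes induced by interleukin 1 was therefore not tested.

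**Figure D3:**
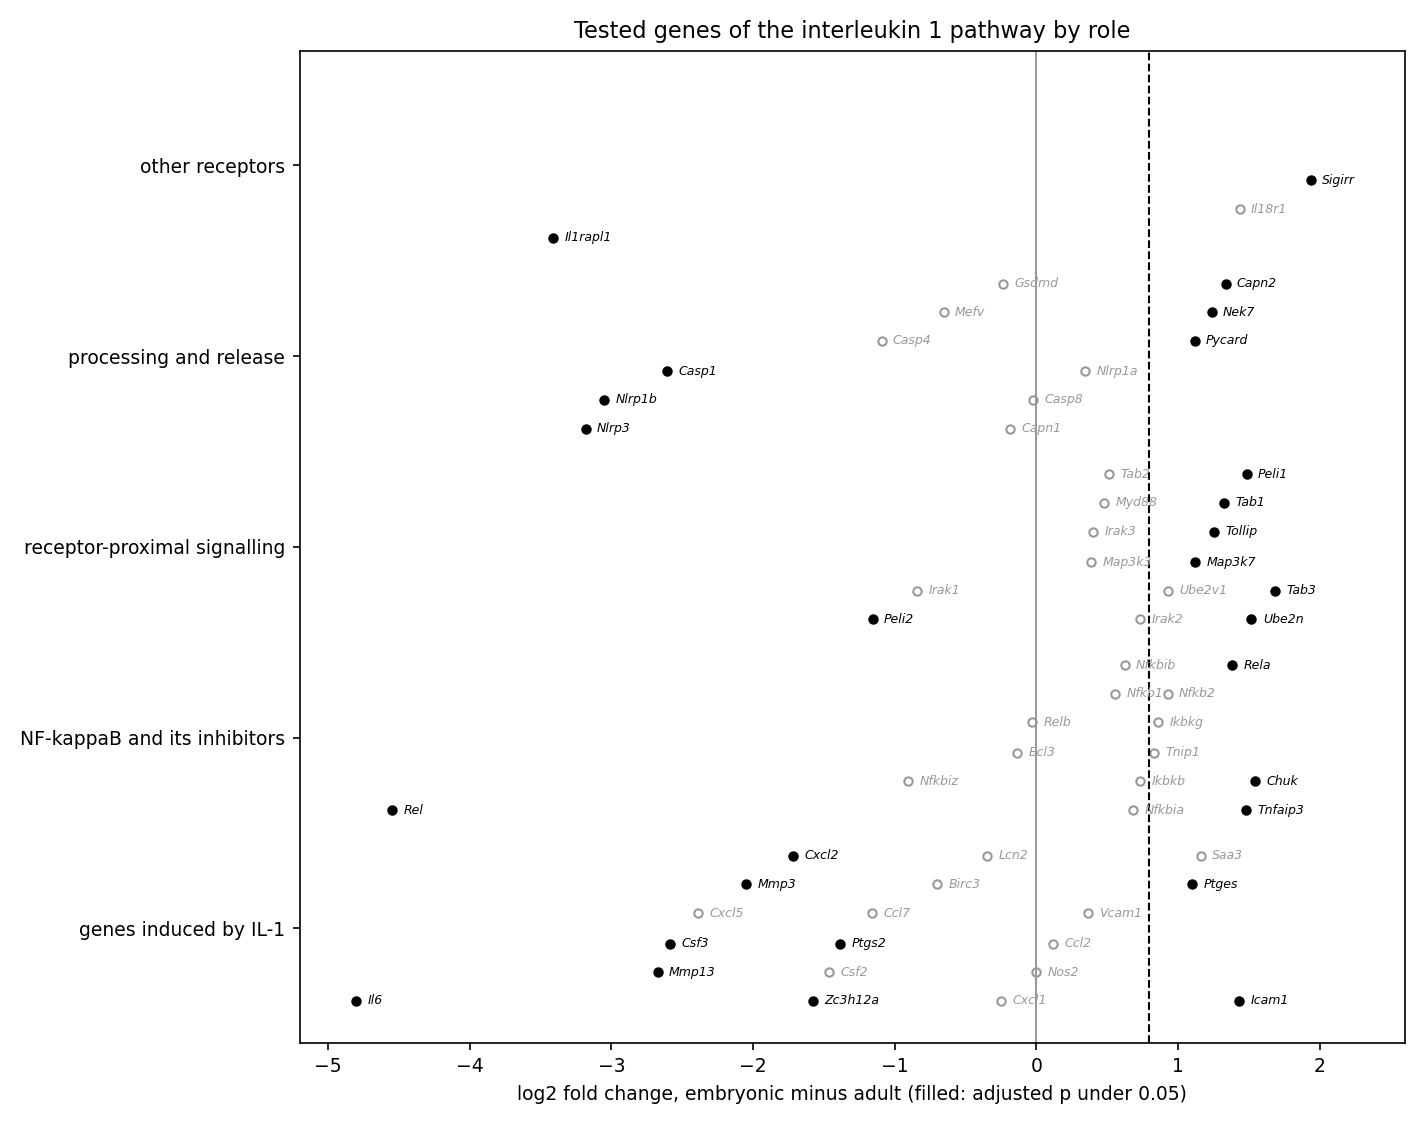
Log2 fold change, embryonic minus adult (horizontal axis), of each tested gene of 5 lists of the interleukin 1 pathway; filled points had an adjusted p under 0.05. The grey line is 0 and the dashed line is the median of all genes tested, 0.79. Signalling and NF-kappaB genes cluster around the median, apart from Rel, and genes induced by interleukin 1 spread down to -4.80 for Il6.

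The labels call the spheres colonies of thymic epithelial stem cells, and markers of several cell types were read beside these values. In bulk RNA of spheres, fewer cells of a type and less RNA per cell cannot be told apart. All 11 fibroblast markers cleared background on the arrays of both groups, with 3 called higher and 1 lower and summed signals of 865 and 540 on the embryonic arrays, against 469 and 465 on the adult arrays. Macrophage and myeloid markers cleared background on both arrays of a group for 11 of 14 genes in embryonic and 10 of 14 in adult spheres, with summed signals of 132 and 114 on the embryonic arrays, against 81.4 and 115 on the adult arrays. Sums are in units of each array's 75th percentile and cover the genes measured on all 4 arrays. The integrin gene Itgam gave 74.4 and 81.3 of the embryonic sums, against 64.2 and 92.3 of the adult sums. Without it the embryonic sums of 57.2 and 32.7 lay above the adult sums of 17.2 and 22.2. The sums without the brightest gene of a list were added after the values were seen. Of the 11 myeloid genes tested 5 were called higher, among them the complement gene C1qa (log2 fold change 2.49), and none lower. No myeloid call remained with arrays centred on the tested genes, and 2 genes were called with quantile normalization. Spi1 was not well above background on any array. Thymic epithelial markers were well above background on both arrays for 9 of 10 genes in embryonic and 7 of 10 in adult spheres, with summed signals of 158.5 and 276 on the embryonic arrays, against 54.0 and 34.3 on the adult arrays. Of 9 tested, 6 were called higher and 1 lower, or 3 and 1 with arrays centred on the tested genes.

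Mast cells and innate lymphoid cells carry the long form of Il1rl1. Of 8 mast cell and basophil markers on the array, Cpa3, Ms4a2 and Fcer1a were not well above background on any array, none of the 3 tested was called, and the summed signals were 4.96 and 4.95 on the embryonic arrays, against 4.92 and 3.55 on the adult arrays. Endothelial cells are known as a source of Il33 in human tissue. Of 7 endothelial markers 5 were tested and 3, Cdh5, Esam and Robo4, were called lower and dim on both embryonic arrays, and the other 2 were not called. The calls of Cdh5 and Robo4 were lost with normexp (adjusted p = 0.117 and 0.184). The summed signals were 16.0 and 26.0 on the embryonic arrays, against 16.3 and 18.7 on the adult arrays, and the receptor gene Kdr alone gave 15.5 and 25.4 of the embryonic sums, against 10.8 and 14.8 of the adult sums. Without Kdr the other 6 markers summed to 0.54 and 0.64 on the embryonic arrays, against 5.46 and 3.83 on the adult arrays, and the groups did not overlap. Esam was the brightest of these 6 on the adult arrays, with log2 levels of 1.78 and 1.01. Only Pecam1 among them was well above background on an embryonic array. Of 8 neutrophil markers on the array 1 was called higher and none lower, and the 6 tested had a median of -0.94 (log2 fold change). The one called was Csf3r, the receptor gene for Csf3, which gave most of the summed signals of 153 and 165 on the embryonic arrays, against 60.5 and 85.8 on the adult arrays. Without Csf3r the sums were 11.7 and 5.65 on the embryonic arrays, against 17.7 and 11.5 on the adult arrays, and 3 neutrophil markers were called lower and none higher in the deposited value table. Of 10 T lineage and innate lymphoid markers 2, Cd3g and Ptcra, were called lower, and Cd3d, Rag1 and Il7r were not well above background on any array, with summed signals of 10.4 and 12.7 on the embryonic arrays, against 9.08 and 8.41 on the adult arrays. Without its brightest gene, Cd4, this list summed to 3.39 and 5.61 on the embryonic arrays, against 4.62 and 4.08 on the adult arrays, and the groups overlapped. No B lineage marker was well above background on an embryonic array. The only one tested, the B cell receptor chain gene Cd79b, was called lower (adjusted p = 0.0075), with at least 3.36 times the embryonic signal in adult spheres. With normexp that call was lost (adjusted p = 0.0746), and the change of -0.76 was smaller than the bound. The B lineage list had summed signals of 0.34 and 0.37 on the embryonic arrays, against 1.08 and 1.24 on the adult arrays, and the embryonic sums are at background. The part of these cell types in the member values was not tested.

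**Figure D4:**
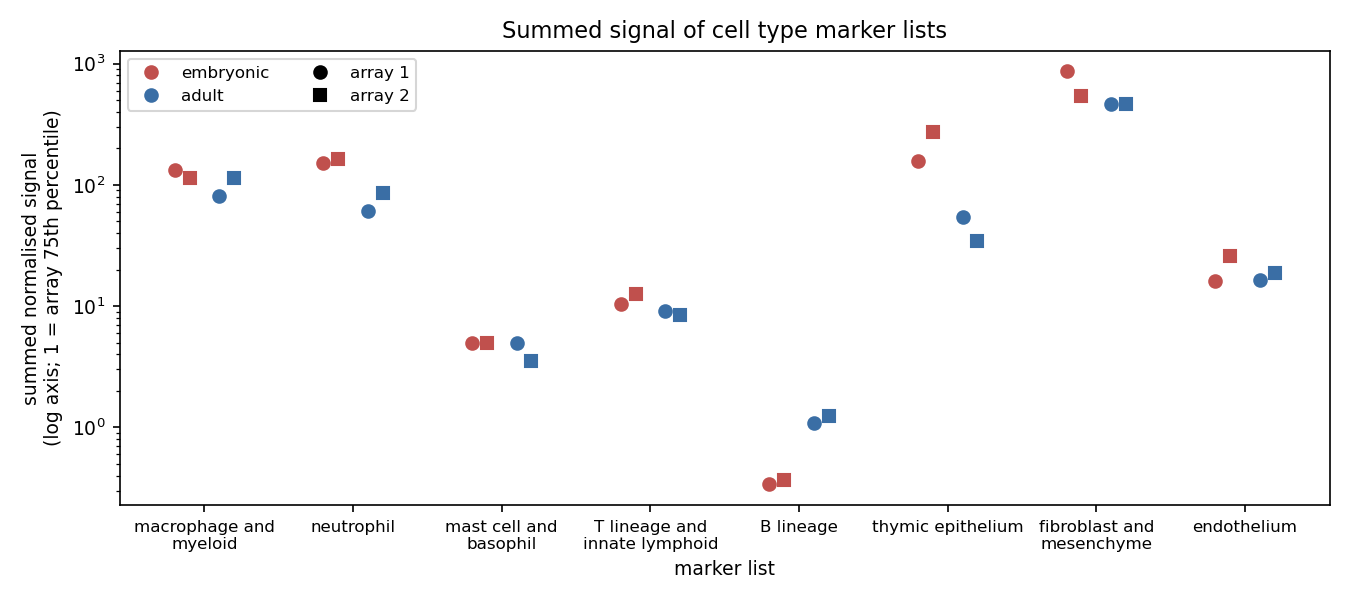
Summed normalised signal (log axis, 1 = 75th percentile of the array) of 8 marker lists on the 2 embryonic and 2 adult arrays. Thymic epithelial sums are higher on both embryonic arrays, B lineage sums are lower there, and macrophage and myeloid sums of embryonic spheres (132 and 114) overlap with those of adult spheres (81.4 and 115), an overlap that Itgam alone makes. Endothelial sums rest mainly on Kdr and neutrophil sums on Csf3r.

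Other ligands and receptors of the family gave little signal. Probes for Il36a, Il36b, Il36g and Il36rn were not matched here, and Il1f10 was well above background on 1 array only. Of 6 further receptor genes 3 were tested. Sigirr, a receptor that dampens interleukin 1 signalling, was called higher (1.94, SE 0.52, adjusted p = 0.0279), which was lost by centring on the tested genes (adjusted p = 0.121) and by normexp (adjusted p = 0.0735). It was lost with no filter on dim probes as well. Il1rapl1, a relative known from synapses, had at least 2.47 times the embryonic signal in adult spheres (adjusted p = 0.0167), a call lost with normexp (adjusted p = 0.118). The Il1rapl1 call was also lost with quantile normalization and with no filter on dim probes. Il18r1, the ligand-binding Il18 receptor, changed by 1.44 (SE 0.55, adjusted p = 0.0723) and was not called. Il18rap, Il1rl2 and Il1rapl2 did not pass the filter.

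**Figure D5:**
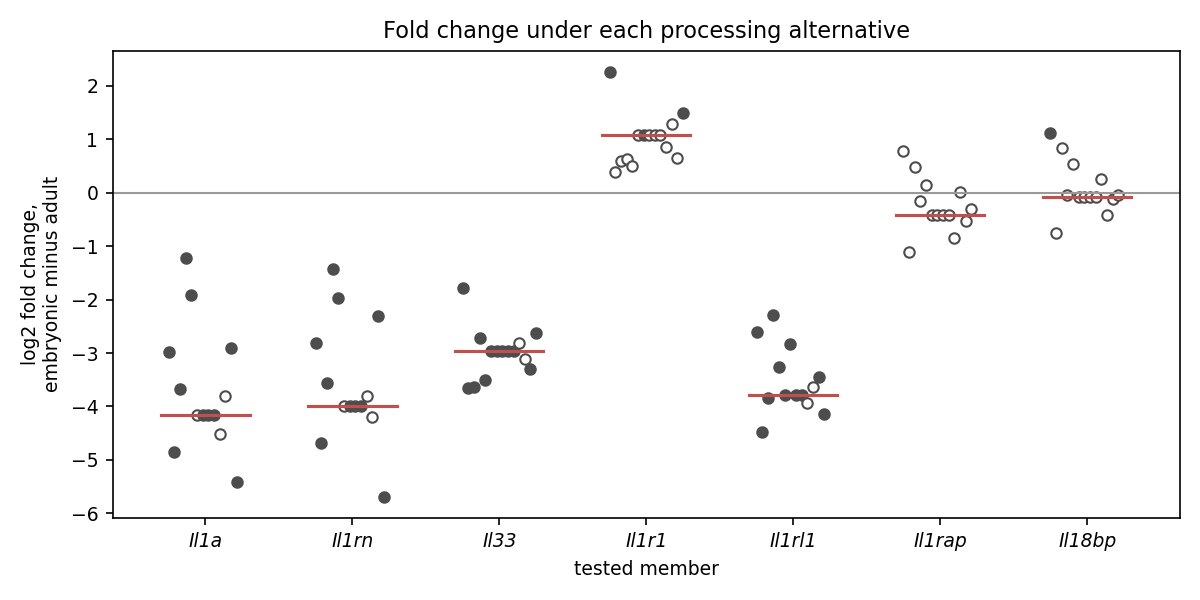
Log2 fold change, embryonic minus adult (vertical axis), of the 7 tested members under each processing alternative. The red line is the value reported, and filled points had an adjusted p under 0.05. Il1a, Il1rn, Il33 and Il1rl1 are below 0 under every alternative run, Il1r1 is above 0 under every one, and Il1rap and Il18bp fall on both sides of 0.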

How the data were processed

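RNA of 2 embryonic and 2 adult thymosphere samples was measured on 4 Agilent 1-colour arrays, from 25 ng of total RNA per sample per the labels. The scanner files hold intensity per spot, extracted with Agilent Feature Extraction 10.7.3.1 and fitted for a spatial trend, per the file headers. The deposited value table holds intensity already equalised between arrays by a method not given in the sources used here. It served as an alternative.

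The processed signal was divided by its 75th percentile on that array (126 and 61.5 for embryonic arrays 1 and 2, 132 and 66.0 for adult arrays 1 and 2) and taken to log2. Control spots and outlier-flagged spots (120 and 95 embryonic, 185 and 2756 adult) were dropped, and no spot was saturated. Spots of a probe were averaged, and a probe was well above background if most of its spots were. Probes were named through RefSeq accessions of GRCm38.p6, used for names, with 28026 of 55681 matched. A gene was represented by its brightest tested probe, probes well above background on all 4 arrays first. The fit used lmFit and eBayes of limma 3.58.1, run in R 4.3.3, over 13660 genes, 262 of them with an array missing, with Benjamini-Hochberg adjustment. It was tested on simulated data. Alternatives changed the background correction (normexp with offset 50), the scaling, the filter, the probe choice, the replicate block and the arrays used.

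Where neither array of a group was well above background and both of the other group were, the fold is a lower bound. The dim group's value on each array was then raised to the lowest signal well above background, where it lay below that, before the group means were compared. This leaves out the error of the means. The bound belongs to the scaling used here, and with normexp the change was smaller than the bound for every gene given one. The members, lists and tests were chosen with earlier results of these data known. Named are all members with all probes, up to 3 called genes per list and direction, genes that did not pass the filter, and the 5 genes most like Il33. Myd88, Cxcl2, Mmp3, Ptgs2, Zc3h12a, Saa3, Lcn2, Cxcl5, Ccl2, Ccl7 and the marker genes were named after their values were seen. The small number of arrays limits precision.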

Additional observations from a re-analysis of the deposited data

How the results depend on the processing

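Il1a, Il1rn, Il33 and Il1rl1 were lower in embryonic spheres under every alternative that tested them, and Il1r1 was higher in all 14. Leaving out single arrays, where the lone array left is assumed to vary like the other group, gave 0 to 7454 genes called (0 to 4983 higher, 0 to 2584 lower) and 0 to 5 members (0 to 1 higher, 0 to 4 lower), with 0 in every case without an adult array. Il1rap then ran from -0.84 to 0.011, above 0 without adult array 2, and Il18bp from -0.41 to 0.27, above 0 without adult array 1. All genes called numbered 7313 (4933 higher, 2380 lower). They numbered 11524 (9839 higher) with centring on all probes, 3736 (950 higher) on tested genes, 4850 (2896 higher) with quantile normalization, 3527 (2584 higher, 943 lower) with normexp, and 2527 (851 higher) with no filter on dim probes. Among genes with signal on all 4 arrays 329 were lower. Calls higher in embryonic spheres made up 67.5% of the main calls, 85.4%, 25.4%, 59.7% and 73.3% under the first 4 of these, 33.7% with no filter and 94.2% with signal on all 4 arrays. Members called were 2, both lower, with no filter, and 2, 1 higher and 1 lower, with signal on all 4 arrays. Centring on all probes called 2 members higher.

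Il1rap turned to 0.77 with centring on all probes, 0.47 with quantile normalization, and 0.15 in the deposited table. Il18bp turned to 1.12, 0.84 and 0.54 there. The cause was not tested. The scanner files give a median spot signal, which normexp used in place of the mean. Same-numbered arrays deviated together with r = 0.07 across 13398 genes, and nothing says that the numbers pair samples. With the replicate number as a block 7017 genes and the same count of 4 members were called. Keeping outlier spots, an alternative chosen after seeing the data, called 7708 genes and 5 members, with Il18 added. Signal near background on the embryonic arrays limits the size of the change for Il1a, Il1b and Il1rn.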
